A study of Homo sapiens with 11 samples.

Results

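The 9 genes described here encode the machinery that presents peptides on major histocompatibility complex (MHC) class I molecules: the heavy chains HLA-B, HLA-C, HLA-E and HLA-F, the light chain B2M, the peptide transporter subunits TAP1 and TAP2, the loading factor TAPBP (tapasin) and the transcriptional activator NLRC5. They were found by their symbols, and all 9 were present among the 26485 genes of the count tables. All 9 also passed the filter on low counts at both times.

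MHC class I molecules display fragments of the cell's own proteins at the cell surface, where cytotoxic T cells and natural killer cells read them. Peptides cut by the proteasome are pumped into the endoplasmic reticulum by the TAP1-TAP2 heterodimer, are loaded onto a heavy chain paired with B2M with the help of tapasin, and leave for the surface as a complete complex. Interferon-gamma signalling, NF-kB and the NLRC5 enhanceosome are the known inducers of these genes, and renal carcinoma cells can escape immune recognition by losing parts of this pathway.

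RNA was sequenced from Caki-1-SR cells, a sunitinib-resistant subline (clone 1) of Caki-1, a human clear cell renal cell carcinoma line from a skin metastasis, kept in 1 µM sunitinib in all groups. ODC is the optimized drug combination, in which the experimental ruthenium agent Rapta-C was used at 2 µM, the EGFR kinase blocker erlotinib and the antidiabetic metformin at 1 µM each, and parthenolide, a plant lactone known to inhibit NF-kB, at 5 µM, and CTRL cells received none of these drugs. Cells were treated for 24 h (3 CTRL libraries, numbered 1, 3 and 5, and 3 ODC libraries, numbered 2, 4 and 6) or for 2 h (CTRL libraries 1 and 2, and ODC libraries 3, 4 and 5). The labels of the 2 times carry different months, so time and month cannot be told apart in any comparison of levels between them. Nothing in the labels says whether libraries of a group came from separate cultures, so p-values measure the spread between these libraries, which may be technical.

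Library totals were 17785229 to 20882856 counts at 24 h and 25782895 to 31118349 at 2 h. Of the renal epithelial markers, PAX8 had 9008 to 19542 counts in every library and KRT18 5866 to 17813, whereas PAX2 and CA9 were at or near 0. At 24 h KRT18 was lower in ODC by 0.71 on the log2 scale (adjusted p = 0.128, edgeR quasi-likelihood test), and the summed level of the 9 renal markers was 3840 to 4810 CPM in ODC against 4750 to 5590 in CTRL. Over 6 leukocyte markers the sum was 7.46 to 7.98 CPM in ODC and 5.82 to 6.11 in CTRL at 24 h, with PTPRC and CD3E at 0 to 2 counts in each of those libraries. The part of these shifts in the class I results was not tested. At 2 h the CTRL library 1 stood apart: it held 971 counts of the fibroblast collagen COL1A2 against 0 to 11 in every other library, 73 of DCN against 0 to 3, and 53 of the class II gene HLA-DRA against 0 to 2, so the 2 h values that move most are also given without it.

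The promoters of the class I genes carry short elements bound by the interferon-induced factors (the interferon-stimulated response element, ISRE) and by NF-kB, and 4 of them are printed: those of TAP1 and TAPBP, whose groups did not overlap at 24 h, of HLA-B, a classical heavy chain, and of B2M, the gene with the highest level. Each line gives the 250 bases before the RefSeq start in GRCh38.p14, 5′ to 3′ on the gene's strand. Capitals mark ISRE forms (TTTCNNTTC or TTTCNNTTT) and NF-kB forms (GGGGANTCC or GGGNNTTTC) on either strand, and overlapping matches run together. The windows are chr6:32853705-32853954 (TAP1, minus strand), chr6:33314079-33314328 (TAPBP, minus), chr6:31357180-31357429 (HLA-B, minus) and chr15:44711267-44711516 (B2M, plus).
TAP1: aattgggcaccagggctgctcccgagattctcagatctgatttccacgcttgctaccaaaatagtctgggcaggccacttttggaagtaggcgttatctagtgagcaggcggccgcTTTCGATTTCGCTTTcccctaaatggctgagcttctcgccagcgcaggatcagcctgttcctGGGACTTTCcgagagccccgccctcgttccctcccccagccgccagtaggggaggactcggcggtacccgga
TAPBP: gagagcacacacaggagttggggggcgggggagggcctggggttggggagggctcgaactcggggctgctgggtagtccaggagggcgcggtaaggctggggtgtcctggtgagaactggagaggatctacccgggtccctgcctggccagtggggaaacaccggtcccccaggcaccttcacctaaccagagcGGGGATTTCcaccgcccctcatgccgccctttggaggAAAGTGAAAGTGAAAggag
HLA-B: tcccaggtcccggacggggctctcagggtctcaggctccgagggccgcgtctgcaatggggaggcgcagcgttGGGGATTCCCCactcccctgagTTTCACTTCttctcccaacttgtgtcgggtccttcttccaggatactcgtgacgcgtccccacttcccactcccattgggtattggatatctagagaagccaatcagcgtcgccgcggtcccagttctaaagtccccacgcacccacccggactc
B2M: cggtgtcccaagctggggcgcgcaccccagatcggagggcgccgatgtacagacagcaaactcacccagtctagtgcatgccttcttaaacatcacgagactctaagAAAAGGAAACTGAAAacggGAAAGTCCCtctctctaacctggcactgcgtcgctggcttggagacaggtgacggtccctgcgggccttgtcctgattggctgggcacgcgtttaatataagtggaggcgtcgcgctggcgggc

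RefSeq promoters were at hand for 7 of the 9 genes (HLA-B, HLA-C, HLA-F, B2M, TAP1, TAP2 and TAPBP). The listed ISRE form TTTCNNTTC was found in 3 of these 7 promoters (HLA-B, HLA-C and TAP2), against 6.56% of the 35116 promoters in the table. The listed NF-kB form GGGGANTCC was found in 1 of 7 (HLA-B), against 1.36%. The forms TTTCNNTTT and GGGNNTTTC were added after these sequences were seen, so counts that include them are built in and read as a description only: with them, 7 of 7 promoters held an ISRE form (14.4% of all promoters) and 4 of 7, namely HLA-B, B2M, TAP1 and TAPBP, an NF-kB form (5.48%). In TAP1 the first ISRE match began 134 bases before the start and the NF-kB match 72 bases before it. In TAPBP the ISRE and NF-kB matches lay within the last 56 bases. TAP1 has another RefSeq promoter (chr6:32852762-32853011), in which no ISRE or NF-kB form was found, so TAP1 is counted here by the printed one. In HLA-B the NF-kB match began 177 and the ISRE match 155 bases before the start, and the B2M matches began between 143 and 124 bases before the start, both on the opposite strand. The other elements searched were the cyclic AMP response core TGACG, present in HLA-B, HLA-C, B2M and TAP2 (21.2% of all promoters), and the Y box CCAAT, present in HLA-B, HLA-C, HLA-F, B2M and, in one far upstream copy, TAP1 (32% of all promoters). These matches describe letters in a window and say nothing about binding.

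Of the 9 genes, 7 lie in the MHC region of chromosome 6, whereas B2M (chr15:44711358-44718851) and NLRC5 (chr16:56989485-57083531) lie elsewhere (hg38, GENCODE 44). TAP1 occupies chr6:32845209-32853816 on the minus strand. The RefSeq start of its printed promoter lies 488 bases from that of PSMB9, and its other RefSeq start lies 1431 bases from the PSMB9 start. PSMB9 encodes an immunoproteasome subunit and is read in the other direction. The antisense gene PSMB8-AS1 overlaps 14.2% of the exonic length of TAP1. Genes on the opposite strand also overlap TAPBP, HLA-F and HLA-B. The largest of these overlaps were 21% of the exonic length for TAPBP (ENSG00000289100), 15.6% for HLA-F (ENSG00000225864) and 14.5% for HLA-B (ENSG00000271581). Whether the counting used strand is not given in the sources used here. Reads of these genes and TAP1 may therefore not have been separated from those of the opposite strand. HLA-B and HLA-C are highly polymorphic, and reads that failed to align because the alleles of this line differ from the reference were not assessed. No stretch of 100 bases, the read length, was shared between transcripts of any 2 of the 9 genes in the reference.

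Levels are given as CPM, the read count of a gene relative to its library's total after TMM scaling (trimmed mean of M values), and between genes as CPM per kilobase of the canonical GENCODE transcript. In CTRL cells at 24 h, B2M stood highest at a mean of 541 CPM per kilobase (491 to 598 over 3 libraries). HLA-C (63.4), HLA-B (53.2) and TAPBP (47.7) followed with library ranges that overlapped between neighbours. HLA-E (26.9) and TAP2 (23) came next, again overlapping, and then TAP1 (9.44, range 8.31 to 10.3), NLRC5 (2.86) and HLA-F (0.463), each without overlap with its neighbours. In ODC cells at 24 h the order of the means was the same, with TAP1 at 18.8 (15.5 to 21.6), a range that reached that of TAP2 (21.5 to 29). At 2 h HLA-B (117 in CTRL) stood above HLA-C (108), with overlapping ranges, and the other genes kept the order they had at 24 h. Transcript lengths vary between isoforms, and this order rests on the one chosen.

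TAP1, the transporter subunit that with TAP2 carries peptides into the endoplasmic reticulum, showed the largest difference of the 9 genes at 24 h. The CTRL libraries 1, 3 and 5 read 22.3, 26.0 and 27.8 CPM, and the ODC libraries 2, 4 and 6 read 51.5, 58.0 and 41.6. Each ODC library lay above each CTRL library, and the lowest ODC value was library 6. The level was 1.99-fold higher with ODC (log2 fold change 0.99, SE 0.15, 95% interval 0.64 to 1.34). The unadjusted p was 0.00018 and the adjusted p, by the Benjamini-Hochberg method over the 12689 genes tested, was 0.0655 in edgeR's quasi-likelihood test, which misses the 0.05 threshold. Over the 16 alternative settings the log2 fold change was 0.87 to 1.11, and the adjusted p ranged from 4.13e-06 to 0.295 and was under 0.05 in 6 of them. Without ODC library 6 the adjusted p was 0.0252, and without ODC library 2 it was 0.295. In bulk RNA, a change in the number of cells that express a gene and a change in RNA per cell cannot be told apart.

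TAP2, the partner subunit, did not follow. Its CTRL libraries 1, 3 and 5 read 143, 108 and 139 CPM and its ODC libraries 2, 4 and 6 read 136, 121 and 164. The groups overlapped, with ODC library 6 highest and CTRL library 3 lowest. The log2 fold change was 0.11 (SE 0.15, 95% interval -0.24 to 0.46, adjusted p = 0.833, edgeR), and its sign turned without ODC library 6 (-0.02) or without CTRL library 3 (-0.01). In the reference, 17.5% of the 100-base stretches of TAP2 transcripts also occur in other genes, the most in an unnamed overlapping gene (ENSG00000250264). Within a library, the ratio of TAP1 to TAP2 counts was 0.156, 0.241 and 0.2 in CTRL libraries 1, 3 and 5 and 0.379, 0.479 and 0.254 in ODC libraries 2, 4 and 6. These ratios did not overlap, and no scaling factor enters them, but they reuse the TAP1 counts given above. At 2 h the same ratio was 0.364 and 0.305 in CTRL and 0.325 to 0.489 in ODC, which overlapped. The ratio of TAPBP to TAP2 counts at 24 h was 1.07, 1.61 and 1.2 in CTRL libraries 1, 3 and 5. In ODC libraries 2, 4 and 6 it was 1.46, 2.17 and 1.13, so these groups overlapped.

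**Figure D1:**
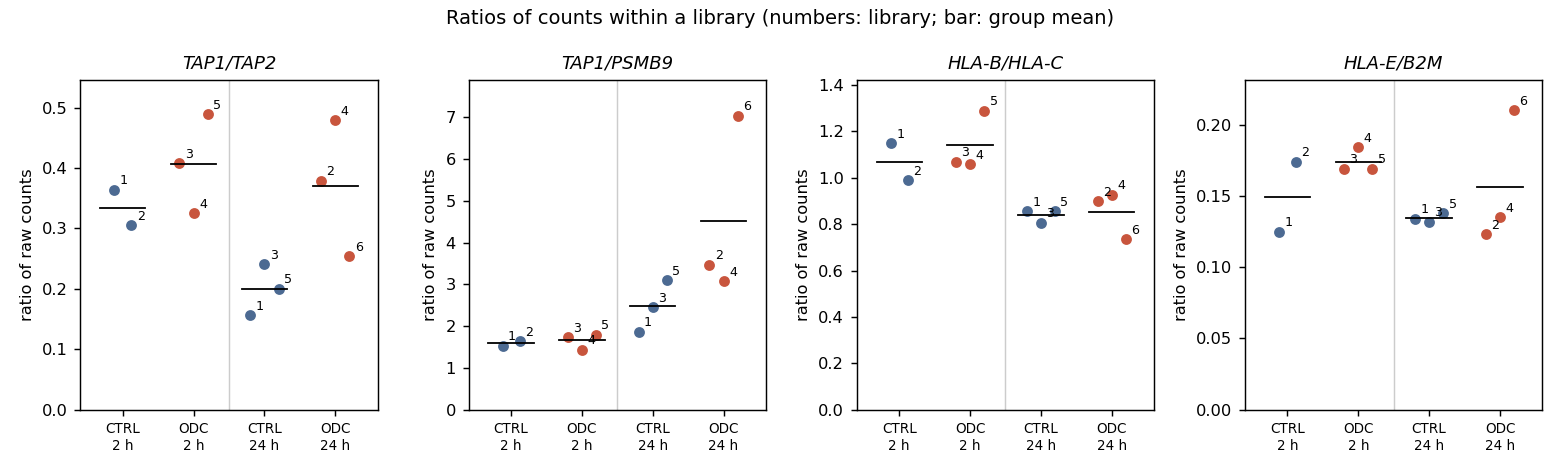
Ratios of raw counts within each library (vertical axes, from 0) for 4 gene pairs, with points numbered by library and a bar at the group mean. TAP1/TAP2 at 24 h runs from 0.156 to 0.241 in CTRL and from 0.254 to 0.479 in ODC, whereas HLA-B/HLA-C at 24 h lies between 0.736 and 0.927 in both groups.

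PSMB9, the immunoproteasome subunit gene that starts beside TAP1, read 11.9, 10.6 and 8.96 CPM in CTRL libraries 1, 3 and 5 and 14.9, 18.9 and 5.91 in ODC libraries 2, 4 and 6. ODC libraries 2 and 4 lay above CTRL and ODC library 6 below it, and the log2 fold change was 0.33 (SE 0.37, adjusted p = 0.789, edgeR). The ratio of TAP1 to PSMB9 counts was 1.87, 2.45 and 3.1 in these CTRL libraries and 3.47, 3.07 and 7.03 in the ODC libraries. The 2 groups overlapped in this ratio, and ODC library 6 held its highest value. At 2 h the ratio lay between 1.44 and 1.79 in all 5 libraries.

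TAPBP, which holds the empty class I molecule beside the transporter, read 153, 174 and 167 CPM in CTRL libraries 1, 3 and 5 at 24 h and 198, 263 and 185 in ODC libraries 2, 4 and 6. The groups did not overlap, and ODC library 4 was the highest. The level was 1.31-fold higher with ODC (log2 fold change 0.39, SE 0.14, 95% interval 0.06 to 0.72, adjusted p = 0.317, edgeR). Without ODC library 4 the log2 fold change was 0.21. At 2 h the CTRL libraries read 200 and 201 CPM and the ODC libraries 3, 4 and 5 read 202, 219 and 264, again without overlap, with a log2 fold change of 0.19 (SE 0.12, adjusted p = 1, edgeR). The 2 h difference rested largely on ODC library 5, and without it the log2 fold change was 0.08.

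**Figure D2:**
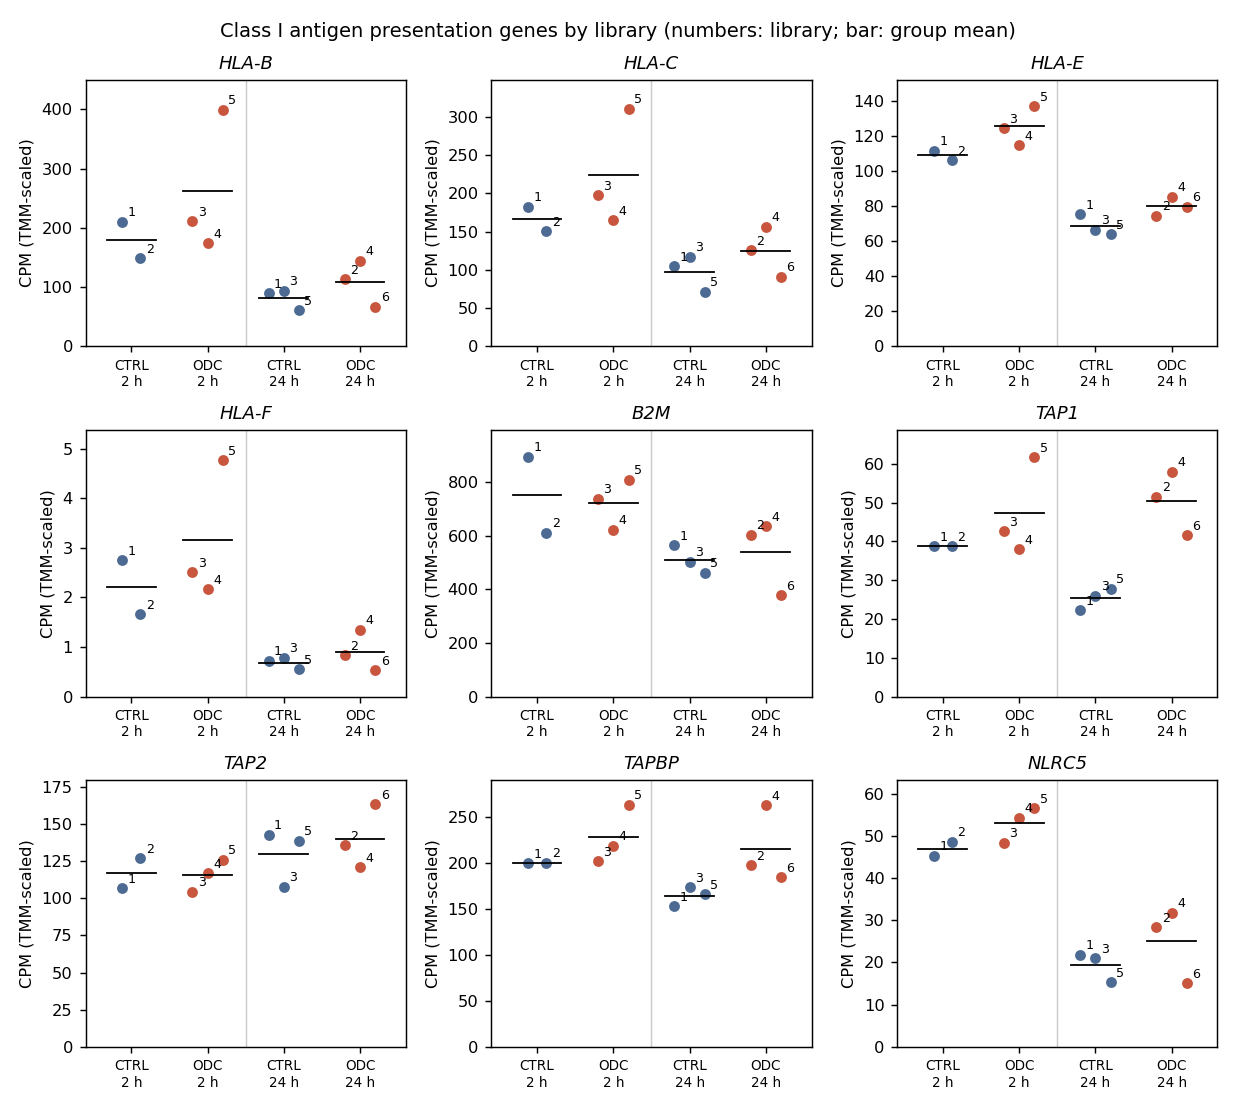
CPM of each of the 9 genes (vertical axes, from 0) in the 11 libraries by group, with points numbered by library and a bar at the group mean. At 24 h the ODC points of TAP1 (41.6 to 58.0) and TAPBP (185 to 263) lie above every CTRL point, and at 2 h ODC library 5 is the highest point of HLA-B (400), HLA-C and TAP1.

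HLA-B, a classical heavy chain that presents peptides to cytotoxic T cells, read 89.8, 94.4 and 60.9 CPM in CTRL libraries 1, 3 and 5 at 24 h and 113, 145 and 67.1 in ODC libraries 2, 4 and 6. ODC library 6 fell within the CTRL range, and the last library of each group was its lowest. The log2 fold change was 0.41 (SE 0.28, 95% interval -0.23 to 1.04, adjusted p = 0.616, edgeR). HLA-C, the other classical heavy chain among the 9 genes, read 105, 117 and 71.3 CPM in CTRL and 126, 156 and 91.2 in ODC, with the same order of libraries. Its log2 fold change was 0.35 (SE 0.23, 95% interval -0.19 to 0.88, adjusted p = 0.608, edgeR). With adjacent libraries taken as pairs, a pairing the labels do not state, HLA-C was 1.2-fold, 1.34-fold and 1.28-fold in the 3 pairs and its adjusted p was 0.0377 (edgeR), in a fit that called 5.41% of all genes. Library 4 and library 5 carried much of both differences: without ODC library 4 the log2 fold changes were 0.13 for HLA-B and 0.14 for HLA-C, and without CTRL library 5 they were 0.23 and 0.16. Without ODC library 6 they were 0.66 and 0.53. For HLA-B, 23.9% of the 100-base stretches of its annotated transcripts also occur in other genes, the most in the pseudogene DHFRP2. The annotation places DHFRP2 at the same locus, where it overlaps 30.7% of the exonic length of HLA-B on the same strand.

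HLA-E, a nonclassical heavy chain read by natural killer cell receptors, varied least between libraries of the heavy chains. Its CTRL libraries read 75.5, 66.6 and 63.8 CPM at 24 h and its ODC libraries 74.6, 85.5 and 79.5. The groups touched only through CTRL library 1 and ODC library 2. The log2 fold change was 0.22 (SE 0.1, 95% interval -0.02 to 0.46, adjusted p = 0.454, edgeR). HLA-F, a nonclassical heavy chain that can appear without peptide, was close to the limit of measurement, with 10 to 25 counts in each 24 h library, and its log2 fold change of 0.38 had an SE of 0.4 (adjusted p = 0.769, edgeR). Without ODC library 4 the HLA-F value was -0.02.

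B2M, the light chain shared by all class I heavy chains, read 564, 504 and 463 CPM in CTRL libraries 1, 3 and 5 and 605, 635 and 379 in ODC libraries 2, 4 and 6. ODC library 6 was the lowest of all 6 and ODC library 4 the highest. The log2 fold change was 0.08 (SE 0.19, 95% interval -0.36 to 0.52, adjusted p = 0.912, edgeR), and it turned to -0.06 without ODC library 4 and to -0.01 without ODC library 2. The 4 heavy chains summed to 48%, 55.3% and 42.5% of the B2M level in the CTRL libraries and to 52%, 61.1% and 62.9% in the ODC libraries, so the 2 groups overlapped.

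NLRC5, the activator that binds class I promoters together with the RFX, CREB and NF-Y factors, read 21.8, 21.0 and 15.4 CPM in CTRL and 28.3, 31.8 and 15.1 in ODC at 24 h. ODC libraries 2 and 4 were the highest and ODC library 6 the lowest of the 6. The log2 fold change was 0.37 (SE 0.27, 95% interval -0.26 to 1, adjusted p = 0.644, edgeR). Without ODC library 4 it was 0.15, without CTRL library 5 it was 0.23, and without ODC library 6 it was 0.63.

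Over the 9 genes at 24 h, 9 of 9 log2 fold changes were above 0, where 50.1% of the 12689 genes tested were. Their median was 0.37, beside 0.00089 for all genes. No gene passed the adjusted threshold, which 24 genes of the transcriptome (0.189%) passed. The unadjusted p was under 0.05 for 2 of 9 (TAP1 and TAPBP), against 12.2% of all genes. These were also the 2 genes whose ODC libraries all lay above the CTRL libraries, which held for 9.42% of all genes. The genes are not independent of one another, and they varied together between libraries: in ODC library 6, 5 of the 9 were at least 1.5-fold below the mean of the other ODC libraries, as were 9.1% of all genes, while in ODC library 4, 2 of the 9 were at least 1.5-fold above, as were 7.98% of all genes. The median over the 9 genes was 0.15 without ODC library 4, 0.23 without CTRL library 5 and 0.53 without ODC library 6.

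**Figure D3:**
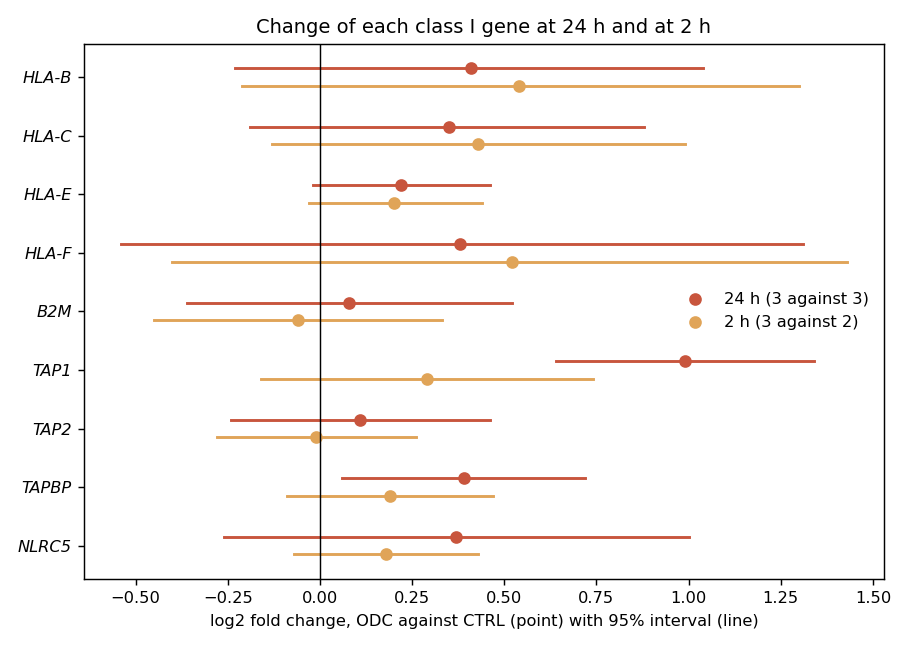
Log2 fold change of ODC against CTRL (horizontal axis) with its 95% interval for each of the 9 genes at 24 h and at 2 h. At 24 h the intervals of TAP1 (0.64 to 1.34) and TAPBP (0.06 to 0.72) lie above 0, and at 2 h every interval includes 0.

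After 2 h, HLA-B read 210 and 149 CPM in CTRL libraries 1 and 2 and 212, 175 and 400 in ODC libraries 3, 4 and 5. HLA-C read 182 and 151 in CTRL and 198, 165 and 311 in ODC. In both genes ODC library 5 stood far above the rest and the other ODC libraries lay close to the CTRL range. The log2 fold changes were 0.54 for HLA-B (SE 0.33) and 0.43 for HLA-C (SE 0.24), with adjusted p = 1 for both (edgeR), and without ODC library 5 they were 0.11 and 0.12. Without CTRL library 1 they were 0.81 and 0.57. Against the mean of the other ODC libraries, library 5 was 2.07-fold for HLA-B, 1.71-fold for HLA-C, 1.53-fold for TAP1 and 1.19-fold for B2M. In all, 4 of the 9 genes were at least 1.5-fold higher in it, as were 3.65% of all genes. Its heavy chain sum reached 105% of the B2M level, against 72.7% and 73.2% in the other ODC libraries and 56.6% and 66.8% in CTRL. What set this library apart was not tested.

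TAP1 at 2 h read 38.9 and 38.7 CPM in CTRL and 42.7, 38.0 and 61.7 in ODC libraries 3, 4 and 5. ODC library 4 was the lowest of the 5, and the log2 fold change was 0.29 (SE 0.2, 95% interval -0.16 to 0.74, adjusted p = 1, edgeR). Without ODC library 5 it was 0.06. HLA-E read 112 and 106 CPM in CTRL and 125, 115 and 137 in ODC, without overlap, with a log2 fold change of 0.20 (SE 0.1, adjusted p = 1, edgeR). B2M read 896 and 611 in CTRL and 738, 623 and 809 in ODC, with the log2 fold change at -0.06 (SE 0.17). Its sign depended on the CTRL library used: it was 0.24 without CTRL library 1, the one with the collagen counts, and -0.29 without CTRL library 2. TAP2 (-0.01), NLRC5 (0.18) and HLA-F (0.52, SE 0.4) also had 95% intervals that included 0. HLA-F was at 0.92 without CTRL library 1, at 0.21 without CTRL library 2 and at 0.09 without ODC library 5.

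At 2 h, 7 of the 9 log2 fold changes were above 0, beside 48.2% of the 13332 genes tested, with a median of 0.20 against -0.006. None had an unadjusted p under 0.05 (2.34% of all genes) and none passed the adjusted threshold, which was passed by 0% of all genes. TAPBP and HLA-E were the 2 of 9 whose ODC libraries lay above both CTRL libraries, as 7.89% of all genes did. Without CTRL library 1 the median was 0.24 and none had an unadjusted p under 0.05, and without ODC library 5 the median was 0.094.

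The change at 24 h minus the change at 2 h was tested in one fit of all 11 libraries. For TAP1 it was 0.68 (SE 0.26, 95% interval 0.12 to 1.25, adjusted p = 0.713, edgeR). TAP1 was the only one of the 9 genes with an unadjusted p under 0.05, which 5.93% of the 13333 genes had, and no member passed the adjusted threshold (0.015% of all genes). The unadjusted p of TAP1 was above 0.05 in 6 of the 11 fits that left out a library. For the other 8 genes the difference lay between -0.16 and 0.18 with unadjusted p of 0.38 or more, and their intervals, for example -1.21 to 0.9 for HLA-B, do not exclude sizeable differences.

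The rest of the pathway was read from lists of genes. Of 9 further genes of the peptide loading complex and of peptide trimming, 7 were higher and 2 lower at 24 h, with a median log2 fold change of 0.14. The unadjusted p was under 0.05 for 3 of 9, where 12.2% of all genes had one, all higher: ERAP1, the aminopeptidase that trims peptides in the endoplasmic reticulum (0.29, SE 0.092, adjusted p = 0.256), CANX (calnexin), the chaperone of new heavy chains (0.38, SE 0.12, adjusted p = 0.267), and TAPBPL, a peptide editor related to tapasin (0.53, SE 0.21, adjusted p = 0.357). ERAP1 read 177, 186 and 191 CPM in CTRL libraries 1, 3 and 5 and 228, 240 and 209 in ODC libraries 2, 4 and 6, without overlap. CANX did not overlap either (1370 to 1636 in CTRL, 1721 to 2211 in ODC), whereas TAPBPL did, with ODC library 6 at 21.5 among CTRL values of 17.6 to 23.8. None of the lists described here held a gene with an adjusted p under 0.05 in edgeR's test at either time.

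Immunoproteasome and activator genes, which shape the peptide supply, had 5 of 6 values above 0 at 24 h with a median of 0.16, and none had an unadjusted p under 0.05. PSMB10, a catalytic subunit, was at 0.24 (SE 0.15), and POMP, the assembly factor, at -0.14 (SE 0.13). The 3 constitutive catalytic subunits were near 0, with PSMB6 at 0.19, PSMB5 at 0.07 and PSMB7 at 0.00. At 2 h PSMB10 was at 0.33 (SE 0.12, adjusted p = 1, edgeR), chosen for mention after its value was seen.

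Among the factors that act on class I promoters, 15 of 16 listed genes were tested at 24 h, 8 higher and 7 lower, with a median of 0.015 and no unadjusted p under 0.05. IRF1, an interferon-induced activator, was at -0.04 (SE 0.22), RFXAP, a subunit of the RFX complex, at -0.28 (SE 0.16), and ATF1, a CREB-family factor, at -0.27 (SE 0.15). CIITA, the class II counterpart of NLRC5, had 0 to 2 counts in each library.

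Of the interferon receptor and signalling genes, 12 of 13 were tested at 24 h, 8 of them higher (50.1% of all genes were), and 2 had an unadjusted p under 0.05 (12.2% of all genes): IFNGR1, a chain of the interferon-gamma receptor (0.43, SE 0.14, adjusted p = 0.264), and IFNAR2, a chain of the type I interferon receptor (0.61, SE 0.24, adjusted p = 0.362). IFNAR1, its partner, was at 0.25 (SE 0.12, adjusted p = 0.449). IFNGR1 did not overlap (25.9 to 34.4 CPM in CTRL, 37.3 to 41.6 in ODC), while in IFNAR2 the ODC library 6 (22.5) lay within the CTRL range of 20.5 to 23.9.

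Interferon-induced genes were mixed. Of 20 listed, 15 were tested at 24 h, 11 higher and 4 lower, with a median of 0.12. IFIT2, an antiviral protein, was higher (0.57, SE 0.17, adjusted p = 0.242), while WARS, a tryptophanyl-tRNA synthetase, and OAS1, an antiviral RNA sensor, were lower by 0.54 (SE 0.17, adjusted p = 0.246) and 0.45 (SE 0.19, adjusted p = 0.398). IFIT1 was at 0.12 (SE 0.3), and the chemokine CXCL10 had 0 to 1 count in each library. GBP1, a guanylate-binding protein named here after its value was seen, had the largest log2 fold change of the list, 1.52 (SE 0.67, adjusted p = 0.421), and read 1.88, 3.5 and 1.99 CPM in CTRL libraries 1, 3 and 5 and 5.85, 13.8 and 1.54 in ODC libraries 2, 4 and 6. In GBP1, as in NLRC5, ODC library 4 was the highest and ODC library 6 lay within or below the CTRL range.

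**Figure D4:**
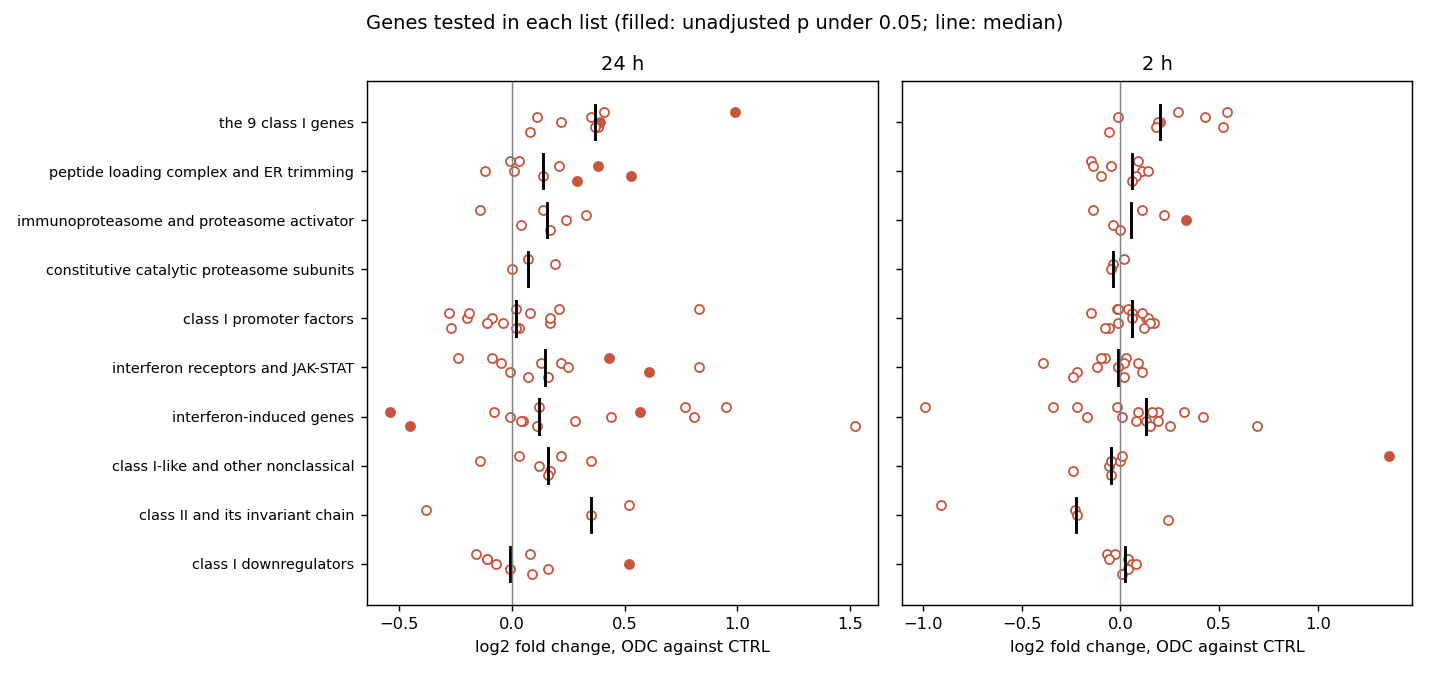
Log2 fold changes (horizontal axes) of the tested genes of each list at 24 h (left) and 2 h (right), with filled points for an unadjusted p under 0.05 and a line at the median. The 9 class I genes have medians of 0.37 and 0.20, and the interferon-induced genes span -0.54 to 1.52 at 24 h.

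Class I-like and other nonclassical genes gave 6 of 7 tested values above 0 at 24 h, with a median of 0.16 and no unadjusted p under 0.05. MR1, which presents vitamin metabolites, was at 0.35 (SE 0.19), PROCR, the protein C receptor, at 0.16 (SE 0.17), and MICB, a stress ligand of natural killer cells, at -0.14 (SE 0.12). At 2 h HLA-G, a nonclassical heavy chain named after its value was seen, had 26 and 15 counts in CTRL and 41, 46 and 90 in ODC libraries 3, 4 and 5 (log2 fold change 1.36, SE 0.5, adjusted p = 1, edgeR). The groups did not overlap, and the highest count was again in ODC library 5. HLA-G is similar in sequence to the other heavy chains, so its low counts are uncertain.

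Of 12 class II genes, 3 passed the filter at 24 h. CD74, the invariant chain, had 932 to 1642 counts in each 24 h library and was at 0.35 (SE 0.22). HLA-DMA was at 0.52 (SE 0.41) and HLA-DMB at -0.38 (SE 0.43), both being class II peptide exchange subunits. Their counts were low, 10 to 26 for HLA-DMA and 6 to 16 for HLA-DMB in each 24 h library. Of 9 genes known to lower class I or its surface display, 4 were higher and 5 lower at 24 h, with a median of -0.0085. SUSD6, a membrane protein of this kind, was higher (0.52, SE 0.19, adjusted p = 0.33), its partner TMEM127 was at 0.16 (SE 0.097) and EZH2, the Polycomb methyltransferase, at -0.16 (SE 0.088). At 2 h these lists held no other gene with an unadjusted p under 0.05 than PSMB10 and HLA-G.

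**Figure D5:**
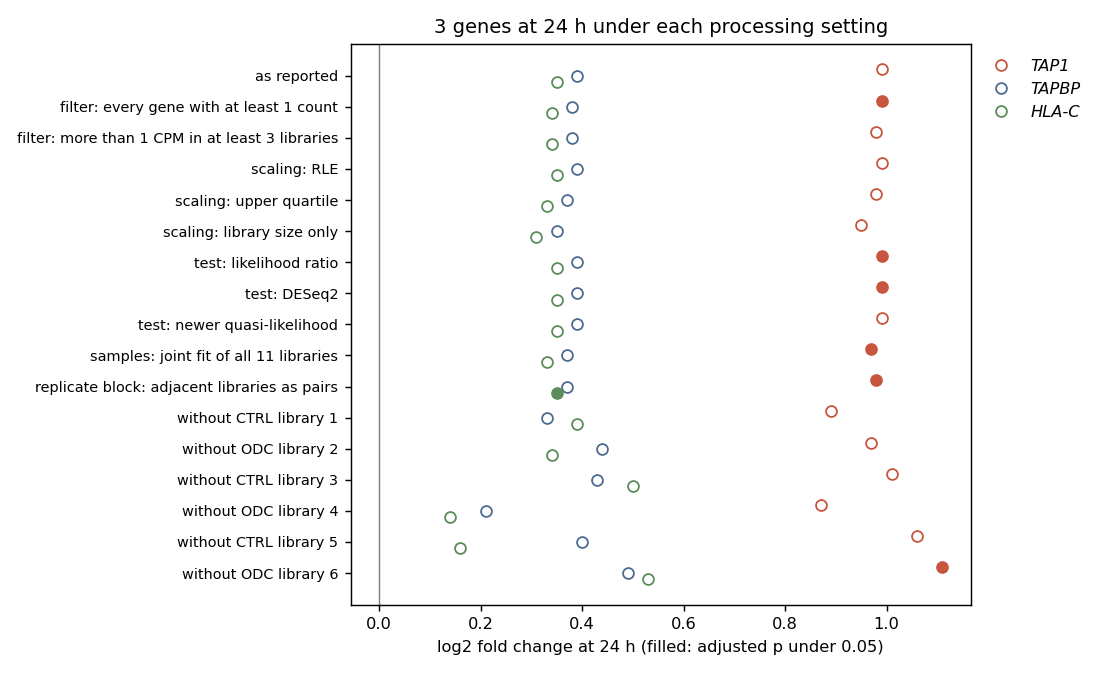
Log2 fold change at 24 h (horizontal axis) of TAP1, TAPBP and HLA-C under each processing setting, with filled points for an adjusted p under 0.05. TAP1 stays between 0.87 and 1.11 and is filled in 6 of the 16 alternatives, TAPBP runs from 0.21 to 0.49 with none filled, and HLA-C from 0.14 to 0.53 with 1 filled, where adjacent libraries were taken as pairs.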

How the data were processed

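Whole-number read counts per gene symbol were deposited by the authors as 1 table for each time point. Libraries were stranded poly(A) mRNA, sequenced as single 100-base reads, and the submitters' processing notes name STAR 2.7.0f, HTSeq 0.9.1, edgeR 3.26.8 and hg38. The annotation release and strand setting are not given in the sources used here. Groups came from the treatment labels. Genes were filtered with filterByExpr (minimum count 10, minimum total 15), scaled by TMM and tested with the quasi-likelihood F test of edgeR 4.0.16 (earlier method) in R 4.3.3, two-sided, separately at each time, with Benjamini-Hochberg adjustment over all genes, and in 1 fit of 11 libraries for the difference between times. The test was tried on simulated data. Alternatives covered the filter, scaling, test (DESeq2 1.42.0 included), samples, pairing and each library left out. Positions came from GENCODE 44 (hg38) and promoters from RefSeq (GRCh38.p14), some of which lie within longer GENCODE transcripts. The members and lists were chosen with earlier results of these data known. Named were the 9 members, the 3 genes of each list with the smallest unadjusted p at 24 h, PSMB9 and IRF1, except items that are not reported here. Replicate libraries differed by 18.7 to 58 in chi-square per gene, well above sampling noise, so none was counted as a duplicate. Among the 9 members, counting error is small beside this spread except for HLA-F, and 3 counts correspond to 0.0964 to 0.169 CPM.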

Additional observations from a re-analysis of the deposited data

How the results depend on the processing

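At 24 h, 1 member (TAP1) had an adjusted p under 0.05 with every gene of at least 1 count kept, with edgeR's likelihood ratio test, with DESeq2 and in the joint fit of 11 libraries, beside 0 as reported. These settings called 92, 401, 378 and 186 of all genes, beside 24. The labels give no shared replicate number. With adjacent libraries taken as pairs, 6 members had an unadjusted and 2 (TAP1, adjusted p = 0.0155, and HLA-C, adjusted p = 0.0377) an adjusted p under 0.05 in edgeR, as did 23.6% and 5.41% of all genes. Deviations of paired libraries correlated at 0.2, 0.58 and 0.45, but CTRL library 1 correlated at 0.23 with ODC library 6, so what the pairs share is unknown. Leaving out each library in turn, members with an unadjusted p under 0.05 numbered 1 to 6 at 24 h (6 without ODC library 6, where 15.6% of all genes had one, and 6.98% to 12.9% did in the other fits), with an adjusted p 0 to 1, and the median log2 fold change was 0.15 to 0.53. At 2 h they numbered 0 to 3 (3 without ODC library 4: HLA-B, HLA-C and TAP1, where 2.66% of all genes had one), the adjusted count stayed 0 and the median was 0.094 to 0.27. For the difference between times the unadjusted count was 0 to 1. With every gene of at least 1 count kept, 2 members had an unadjusted p under 0.05 at 2 h, as did 3.22% of all genes. The causes were not tested. Scaling changed the sign of none of the 9 genes at 24 h.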
